A study of Homo sapiens with 8 samples.

Results

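The class 3 semaphorins SEMA3A to SEMA3G, the neuropilin receptors NRP1 and NRP2, and RBM5, the gene next to SEMA3F on chromosome 3, are described here across 4 medulloblastoma cell lines. They are 10 of 20005 protein-coding genes annotated in GENCODE 44. The genes were selected on measured values, since a strong H3K27Ac region between RBM5 and SEMA3F in every Group 3 line was part of the choice. The strength and rank of that region are therefore a description and carry no test. A region was assigned to a gene when it overlapped the gene body or came within 50 kb of the start site on GRCh38, which gave 29 of 26072 regions in MB002, 36 of 26317 in D425, 13 of 15286 in the HD-MB03 line and 27 of 20875 in UW228.

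Chromatin immunoprecipitation with sequencing was done with an antibody to H3K27Ac, a histone acetylation found at active enhancers and promoters, and each line also had an input library made without antibody. MB002, D425 and HD-MB03 are labelled as Group 3 medulloblastoma and UW228 as the SHH subtype. MB002 and HD-MB03 were grown in a serum-free stem cell medium, whereas D425 and UW228 were grown in DMEM with fetal bovine serum. Each line had 1 library of each kind, with no replicate, so no difference between lines could be tested, and the read depth is unknown because the deposited tables hold no read totals. The table of UW228 was made in 2021 and those of the Group 3 lines in 2020, so table date and subgroup cannot be told apart.

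Class 3 semaphorins are secreted guidance cues that steer axons, migrating neurons and endothelial cells. Most of them bind a neuropilin, a co-receptor with a short cytoplasmic tail, and the signal is passed on by a plexin in the same complex. Neuropilins also bind members of the VEGF family, so that semaphorins and VEGF meet at the same receptors.

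Peaks of H3K27Ac lying within about 12 kb of each other had been stitched into regions, and the regions of each line had been ranked by signal. Signal is H3K27Ac minus input, in reads scaled to library size (RPM) and summed over the region. Regions above a cutoff set from the curve of ranked signal are super-enhancers (SEs) and the others typical enhancers (TEs). The cutoff was 32353 in MB002 with 363 SEs, 26206 in D425 with 431, 22917 in the HD-MB03 line with 302 and 24467 in UW228 with 753. The median region had a signal of 890.2 in MB002, 717 in D425, 846 in the HD-MB03 line and 1690.0 in UW228. UW228 thus had the most SEs and the highest median signal, and HD-MB03 the fewest regions.

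Sequence of the places described is shown first. RefSeq promoters on GRCh38.p14 matched 8 of the 10 genes, and SEMA3A and NRP1 had no match. The first lines give the 250 bases before the RefSeq start of SEMA3F, at chr3:50154808-50155057 on the plus strand, and of NRP2, at chr2:205682251-205682500 on the plus strand. SEMA3F has 3 RefSeq promoters, of which the first is shown. The shown SEMA3F promoter lay inside the SE of MB002 and HD-MB03 and the NRP2 promoter inside the SE of MB002. Capitals mark matches on either strand to any of 5 motifs. The OTX core, bound by OTX2 and CRX, is spelled TAATCC here and was also searched in a longer form, CTAATCC, which contains it. The AP-1 core is spelled TGANTCA, the E-box of proneural factors is spelled CAGATG, and the GC box of SP factors is spelled GGGCGG.
SEMA3F promoter: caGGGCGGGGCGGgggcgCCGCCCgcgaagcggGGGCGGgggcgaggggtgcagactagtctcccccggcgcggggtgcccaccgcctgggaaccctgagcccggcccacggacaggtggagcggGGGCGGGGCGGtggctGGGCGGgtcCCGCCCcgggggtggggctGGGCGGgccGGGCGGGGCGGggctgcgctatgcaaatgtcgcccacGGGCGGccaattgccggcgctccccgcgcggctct
NRP2 promoter: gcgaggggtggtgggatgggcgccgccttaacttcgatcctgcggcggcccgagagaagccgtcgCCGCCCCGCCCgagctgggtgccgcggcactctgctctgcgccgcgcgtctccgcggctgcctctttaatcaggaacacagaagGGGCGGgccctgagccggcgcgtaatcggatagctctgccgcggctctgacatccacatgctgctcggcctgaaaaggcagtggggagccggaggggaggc
All capitals in both promoters are the GC box on one strand or the other, with 12 matches at SEMA3F and 3 at NRP2. Of 35116 RefSeq promoters of the same length, 42.6% held the GC box at least once, 12.2% the E-box, 6.57% the AP-1 core, 5.62% the OTX core and 1.57% its longer form. The shown SEMA3F promoter was rich in G and C, at 82%, against 70% for NRP2. The other SEMA3F promoters, at 80.4% and 52.8%, held 2 and 0 GC boxes, and the last of them lay inside a region of UW228 as well as the SEs of MB002 and HD-MB03.

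Stretches of 300 bases free of annotated exons are shown from the SEs themselves, all on the plus strand of GRCh38. They were picked for holding the most matches to the AP-1 core or to the E-box, and so do not stand for the whole region. The SEMA3F stretches come from the interval that the SEs of all 3 Group 3 lines share, at chr3:50122015-50122314 and chr3:50126300-50126599, in an intron of the antisense transcript SEMA3F-AS1. Those of SEMA3C, at chr7:80883433-80883732 and chr7:80839060-80839359, and of NRP2, at chr2:205685277-205685576 and chr2:205684918-205685217, are intronic and come from SEs of UW228.
SEMA3F AP-1 stretch: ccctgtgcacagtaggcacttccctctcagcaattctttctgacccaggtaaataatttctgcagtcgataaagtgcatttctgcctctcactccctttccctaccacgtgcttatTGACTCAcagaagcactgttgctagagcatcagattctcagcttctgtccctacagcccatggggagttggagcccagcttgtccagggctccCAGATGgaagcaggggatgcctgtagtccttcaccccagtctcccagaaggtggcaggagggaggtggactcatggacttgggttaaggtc
SEMA3F E-box stretch: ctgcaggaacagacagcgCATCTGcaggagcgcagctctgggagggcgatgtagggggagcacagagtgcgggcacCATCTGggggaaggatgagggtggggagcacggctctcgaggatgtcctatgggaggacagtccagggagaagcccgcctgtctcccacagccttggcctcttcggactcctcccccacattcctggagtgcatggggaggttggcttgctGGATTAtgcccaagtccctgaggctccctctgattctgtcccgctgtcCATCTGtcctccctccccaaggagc
SEMA3C AP-1 stretch: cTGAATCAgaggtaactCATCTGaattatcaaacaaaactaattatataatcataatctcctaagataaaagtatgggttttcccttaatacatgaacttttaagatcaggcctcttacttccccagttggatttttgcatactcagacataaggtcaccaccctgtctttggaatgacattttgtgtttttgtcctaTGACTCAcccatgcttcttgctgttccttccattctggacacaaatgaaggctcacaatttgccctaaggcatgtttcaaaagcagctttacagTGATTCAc
SEMA3C E-box stretch: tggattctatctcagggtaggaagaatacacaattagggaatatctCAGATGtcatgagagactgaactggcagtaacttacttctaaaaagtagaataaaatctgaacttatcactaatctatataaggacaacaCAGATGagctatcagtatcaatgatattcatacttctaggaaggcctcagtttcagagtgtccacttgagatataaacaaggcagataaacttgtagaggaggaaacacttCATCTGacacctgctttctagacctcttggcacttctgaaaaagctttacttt
NRP2 AP-1 stretch: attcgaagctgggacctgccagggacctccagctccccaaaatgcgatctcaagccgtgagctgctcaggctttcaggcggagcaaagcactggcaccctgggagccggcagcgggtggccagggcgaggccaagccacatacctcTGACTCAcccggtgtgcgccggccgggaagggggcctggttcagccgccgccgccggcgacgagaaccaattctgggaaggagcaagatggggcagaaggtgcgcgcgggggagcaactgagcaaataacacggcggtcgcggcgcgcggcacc
NRP2 E-box stretch: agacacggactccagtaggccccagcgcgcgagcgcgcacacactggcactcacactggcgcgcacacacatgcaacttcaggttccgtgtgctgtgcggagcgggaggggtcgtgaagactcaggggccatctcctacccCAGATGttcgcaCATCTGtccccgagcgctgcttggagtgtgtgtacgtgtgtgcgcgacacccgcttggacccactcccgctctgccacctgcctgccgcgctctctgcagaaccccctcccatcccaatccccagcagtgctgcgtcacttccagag
The SEMA3F interval held 6 matches to the AP-1 core and 25 to the E-box in 30.4 kb, and at most 1 and 3 of them in any 300 bases free of exons. The largest SEMA3C SE held 40 and 63 in 94.2 kb, and the NRP2 SE of UW228 held 12 and 35 in 29.6 kb. A stretch of 300 bases with at least 1 AP-1 core made up 9.43% of such stretches in the regions of MB002, 9.40% in D425, 8.66% in the HD-MB03 line and 12.1% in UW228, and with an E-box 20.8%, 20.2%, 23.3% and 19.5%.

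Over whole SEs the motifs were set beside all SEs of the same line. The OTX core occurred 0.595 times per kb in the SEMA3F SE of MB002 against 0.880 over all SEs of that line, 0.725 against 0.922 in D425 and 0.522 against 0.699 in HD-MB03. The SEMA3F SE thus held fewer OTX cores per kb than the SEs of its line in each Group 3 line, and the longer form was found 1 time in MB002, 0 times in D425 and 2 times in the HD-MB03 line. The AP-1 core occurred 0.425 times per kb in the largest SEMA3C SE, 0.440 in the NRP1 SE and 0.405 in the NRP2 SE of UW228, against 0.390 over all SEs and 0.448 over all regions of UW228. It occurred 0.461 times in the SEMA3A SE. In the Group 3 lines it was rarer than in the SEs of the same line, at 0.181, 0.198 and 0.167 in the SEMA3F SEs against 0.322, 0.316 and 0.281, and at 0.294 in the NRP2 SE of MB002. The E-box occurred 1.18 times per kb in the NRP2 SE of UW228 and 1.10 in that of MB002, against 0.756 and 0.822 over all SEs. In the largest SEMA3C SE and the SEMA3A SE of UW228 it was rarer, at 0.669 and 0.607, and in the SEMA3F SEs it was at 0.776, 0.824 and 0.815 against 0.822, 0.809 and 0.863. The GC box occurred 0.802, 0.461 and 0.731 times per kb in the SEMA3F SEs against 0.318, 0.438 and 0.691 over all SEs of the same line. The SEMA3F SEs were also richer in G and C than the SEs of their lines, at 57.4% against 45.5% in MB002, 56.9% against 47.3% in D425 and 57.5% against 50.6% in the HD-MB03 line. The OTX core, the AP-1 core and the E-box were searched first, and the longer OTX form and the GC box were added after those counts and sequences had been seen, so the added motifs are descriptions of sequences already read. A match says only that the letters are present.

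Markers of the labelled subgroups were read in the same way. Of 8 Group 3 markers, 7 had a region in MB002, 6 in D425, 6 in the HD-MB03 line and 3 in UW228, with a summed signal of 1232020, 367360, 318233 and 38208. OTX2, which drives the Group 3 programme, was the strongest in each Group 3 line, and OTX2, CRX, NRL and RCVRN had regions in all 3 Group 3 lines and none in UW228. NPR3 had none in the Group 3 lines and 3 in UW228, and GABRA5 had a region in MB002 alone. Of 9 SHH markers, 6 had a region in MB002, 5 in D425, 6 in the HD-MB03 line and 7 in UW228, with a summed signal of 63103, 43915, 148311 and 88301. ATOH1 was at 0 in every line, BARHL1 was at 0 in MB002 and UW228, and no SHH marker had a SE in UW228, whereas 3 of them, GLI1, PDLIM3 and PTCH1, had one in HD-MB03. GLI1 and PTCH1, targets of hedgehog signalling, had a summed signal of 1433 and 879 in UW228 against at least 13119 and 4188 in the Group 3 lines. SFRP1 had a region in UW228 alone, with 7879, and EYA1 had 64029 there against at most 5749 in the Group 3 lines. A region was found at 70.8% of all protein-coding genes in MB002, 72.9% in D425, 58.2% in the HD-MB03 line and 61.8% in UW228. A region in the 3 Group 3 lines and not UW228, as at OTX2, CRX, NRL and RCVRN, was found at 11.2% of those genes. Nothing about the labels is read from the counts of markers with a region. HD-MB03 had SEs at both Group 3 and SHH markers. The markers of the SHH label were mixed, since UW228 had the highest signal at SFRP1 and EYA1 but the weakest at GLI1 and PTCH1. UW228 had no region at ATOH1 and is called the line labelled SHH. Of 6 mesenchymal markers 6 had a region in MB002, 4 in D425, 4 in the HD-MB03 line and 6 in UW228. In UW228 COL1A2, VIM and CD44 had SEs, and COL1A2 was the strongest. The summed signal was 274344 in UW228 against 52696 in MB002, 18085 in D425 and 31011 in the HD-MB03 line. FN1 and CD44 were each at 0 in 1 Group 3 line and TWIST1 in 2. Of 3 endothelial markers 2 had a region in MB002, 2 in D425, 3 in the HD-MB03 line and 3 in UW228, where PECAM1 had a SE. The summed signal of the list was 59268 in UW228 against 15910, 11341 and 5572 in the Group 3 lines. The part of these differences in the results on semaphorins and neuropilins was not tested.

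By the deposited calls SEs lay in part at different family members in the Group 3 lines and in the line labelled SHH. SEMA3F and RBM5 had a SE in all 3 Group 3 lines, whereas SEMA3A, SEMA3C and NRP1 had one in UW228 alone and NRP2 in MB002 and UW228. In all, 9 of the 10 genes had a region in MB002, 10 in D425, 7 in the HD-MB03 line and 9 in UW228, where 70.8%, 72.9%, 58.2% and 61.8% of all protein-coding genes had one. A SE was assigned to 3, 2, 2 and 4 of the 10, against 3.35%, 4.34%, 3.11% and 4.99% of all protein-coding genes, and nothing is read from this since the choice used the same signal. A SE in all 3 Group 3 lines was found at 2 of the 10 genes, SEMA3F and RBM5, and at 0.38% of all protein-coding genes. These 2 genes share the same SE, which was part of the choice, so nothing is read from this count either. A SE in UW228 and in no Group 3 line, found at 3 of the 10, was found at 3.87%. Gene length was not matched in these shares. No member had a region in UW228 alone, 0 of 10 against 3.57% of all protein-coding genes.

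**Figure D1:**
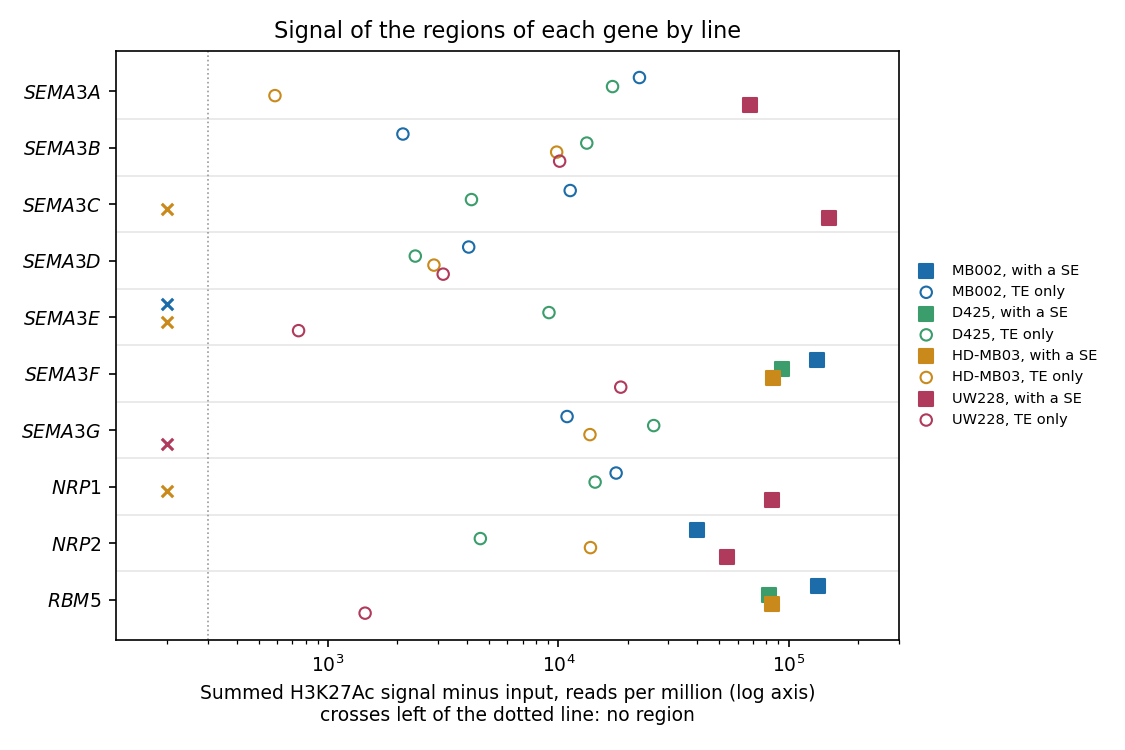
Summed signal of each gene in each line, H3K27Ac minus input in RPM on a log axis. Filled squares stand for genes with a SE, open circles for genes with TEs only, and crosses left of the dotted line for genes with no region. SEMA3F and RBM5 are the genes whose 3 Group 3 lines all carry filled squares to the right of UW228.

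SEMA3F encodes a secreted ligand that binds mainly NRP2 and repels axons. Its best region was a SE of 38.7 kb with 9 peaks and a signal of 133236 in MB002, at chr3:50121399-50160063, where it ranked 18 of 26072. In D425 the SE spanned 30.4 kb with 11 peaks, at chr3:50121898-50152254, and its signal of 82110 ranked 30 of 26317. In HD-MB03 it spanned 47.9 kb with 14 peaks, at chr3:50120945-50168816, and its signal of 84847 ranked 9 of 15286. The 3 SEs began within 3 kb past the end of RBM5 and shared the whole interval of the D425 SE, 30.4 kb that lies between RBM5 and SEMA3F inside the body of SEMA3F-AS1. UW228 had a TE of 15.5 kb with 2 peaks in the same place only in part, at chr3:50155855-50171374, with a signal of 18652 and rank 1162 of 20875. That TE began 0.810 kb after the start of SEMA3F and shared 4.21 kb with the SEMA3F regions of MB002, 2.69 kb with those of D425 and 13.0 kb with those of HD-MB03. The shared Group 3 interval before the gene had no counterpart assigned to SEMA3F in UW228.

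The regions differed in where they stopped. The SE of MB002 ran 5.02 kb past the SEMA3F start and that of HD-MB03 ran 13.8 kb past it, whereas the SE of D425 ended 2.79 kb before it and overlapped no part of the gene. D425 reached SEMA3F itself only with a TE of 2.69 kb that ranked 8383. The stitched region thus spanned the start site in MB002 and HD-MB03 and not in D425. Peak positions inside a region were not used here, so the acetylation at the start itself is not shown. The authors describe leaving out peaks close to promoters, although a region of 1 peak lies over the start of SEMA3D in MB002.

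**Figure D2:**
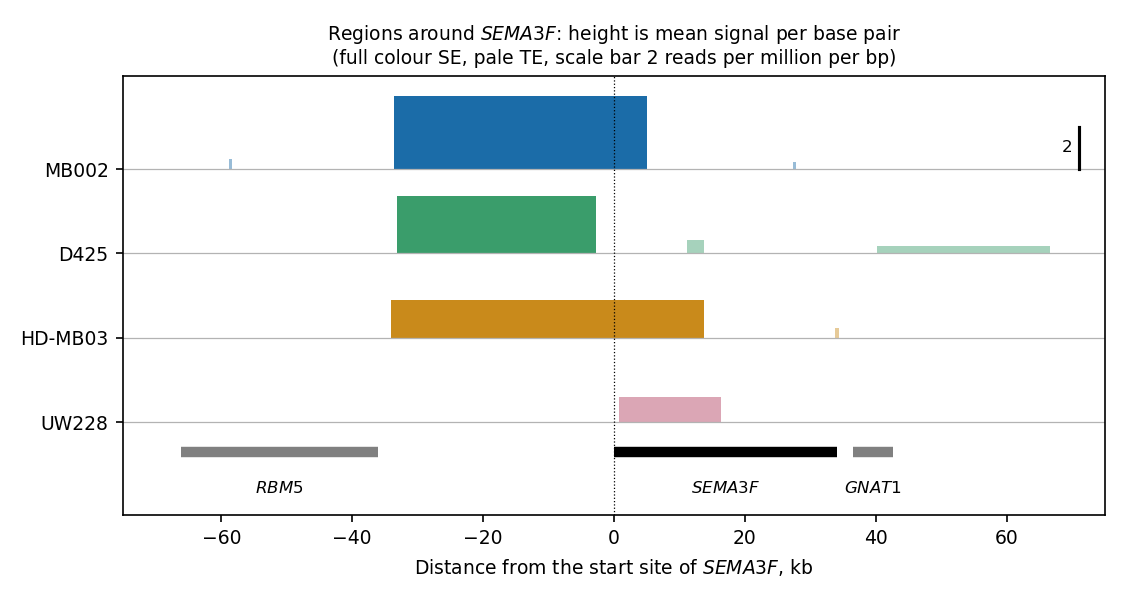
Regions assigned to SEMA3F and RBM5 in each line by distance from the SEMA3F start site in kb, with the height of each box its mean signal in RPM per bp. Full colour marks SEs and pale colour TEs, and the bars at the bottom are gene bodies. The Group 3 SEs fill the gap between RBM5 and SEMA3F, and the UW228 TE lies inside SEMA3F.

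Over all regions assigned to SEMA3F the summed signal was 133318 in MB002 over 38.9 kb, 93234 in D425 over 59.5 kb, 85146 in the HD-MB03 line over 48.5 kb and 18652 in UW228 over 15.5 kb. The mean per bp over these regions was 3.42, 1.57, 1.76 and 1.20. All 3 Group 3 lines were above UW228 on both scales, but the distance between them was far smaller per bp. The mean of D425 takes in a TE of 26.5 kb downstream, at 0.354 per bp. The SEs alone had 3.45 per bp in MB002, 2.70 in D425 and 1.77 in the HD-MB03 line, against 1.20 for the TE of UW228. The log2 ratio of summed signal to UW228 was 2.84 in MB002, 2.32 in D425 and 2.19 in the HD-MB03 line, and that of mean signal per bp was 1.51, 0.38 and 0.55. The median log2 ratio of summed signal over 7203 genes with a region in all 4 lines was 0.29, 0.15 and -0.26, so SEMA3F lay above the median gene in each Group 3 line.

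Input differed between the lines at this locus. The input density of the best SEMA3F region, relative to the median region of its line, was 1.19 in MB002, 1.44 in D425 and 1.04 in the HD-MB03 line against 0.350 in UW228. The median over regions within 500 kb was 0.895, 0.924, 1.04 and 0.349, so the low input of UW228 was shared by its neighbourhood on 3p21. Dividing the signal by relative input density lowered the log2 ratio to 1.10, 0.38 and 0.61 and moved the SEMA3F region of UW228 from rank 1162 to rank 199, past the recomputed cutoff and inside the 753 places of the deposited SEs. Division by the median within 500 kb gave rank 174 in UW228 and ratios of 1.48, 0.87 and 0.61, and using it for the ratios was added after the data had been seen. The Group 3 lines stayed above UW228 in every one of these settings, by under 2-fold in D425 and HD-MB03, and the SE call was no longer limited to the Group 3 lines. With mean signal per bp the SEMA3F region passed the recomputed cutoff in MB002 alone, at rank 119 of 329, and missed it in D425, at 263 with 250 let in, and in HD-MB03, at 836 with 153 let in. The part of the low input in the difference was not tested.

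**Figure D3:**
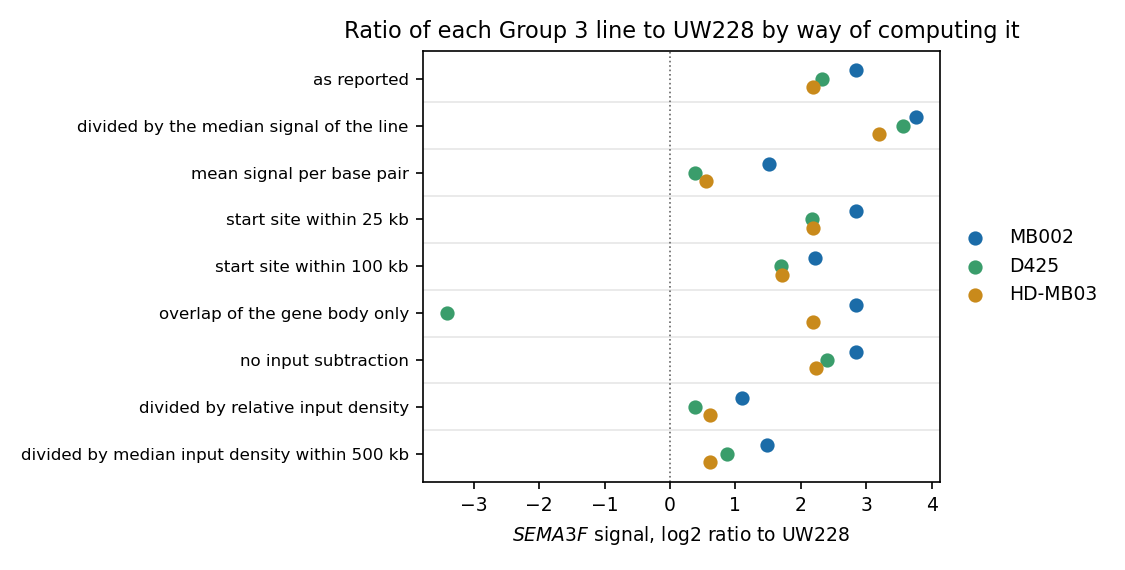
Log2 ratio of SEMA3F signal to UW228 for each Group 3 line under each way of computing it, with the dotted line at equal signal. All points lie right of 0 except D425 with regions that overlap the gene body only, at -3.41, and the points for mean per bp and for division by input lie nearest to 0.

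SEMA3C and SEMA3A, which lie on 7q and encode ligands that bind NRP1, had their highest summed signal in the line labelled SHH. SEMA3C had 4 regions in UW228 over 173 kb with a summed signal of 149180, against 11252 in MB002 over 61.2 kb, 4193 in D425 over 28.9 kb and no region in the HD-MB03 line. The mean per bp was 0.863 in UW228, 0.184 in MB002 and 0.145 in D425, so UW228 was the highest on both scales. Of the 4 regions 3 were SEs, ranked 78, 482 and 638, and the first spanned 94.2 kb of the gene at chr7:80824893-80919053. Ranked by mean per bp, the best SEMA3C region of UW228 was the TE of 10.3 kb before the gene. It was at 1965 and missed the recomputed cutoff, which let in 1701. The SEs were lower, at 0.811, 1.09 and 0.694 per bp against 1.33 for that TE. The log2 ratio to UW228 was -3.73 in MB002 and -5.15 in D425, and the regions of D425 lay wholly inside those of UW228. The relative input density of these regions was 1.38 in UW228, 0.892 in MB002 and 1.10 in D425.

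SEMA3A, a repellent of growing axons, is the longest gene of the set at 537 kb and had 9 regions over 107 kb in UW228 with a summed signal of 67609. MB002 had 7 regions over 60.1 kb with 22493, D425 had 8 over 18.9 kb with 17184, and HD-MB03 had 2 over 1.01 kb with 588. UW228 had the only SE, of 41.2 kb and rank 636, which lay 431 kb downstream of the start inside the gene. By mean per bp the best SEMA3A region of UW228 was a TE of 1.36 kb. It ranked 2217 and missed the recomputed cutoff, which let in 1701. The SE was lower, at 0.656 per bp against 1.29 for that TE. The mean per bp was 0.374 in MB002, 0.907 in D425, 0.583 in the HD-MB03 line and 0.631 in UW228. The log2 ratio of summed signal was -1.59, -1.98 and -6.85, and per bp that of D425 turned to 0.52, so the lower signal of D425 went with a shorter covered length. Divided by the median input within 500 kb, the UW228 region of rank 636 fell to rank 1051 and was no longer a SE. Divided by its own relative input density it fell to rank 886, outside the 753 of the deposited calls, and passed a recomputed cutoff that let in 927 regions. The best SEMA3A region of MB002 then passed at rank 929 of 964, where the deposited calls have 363. The log2 ratio of MB002 to UW228 was -0.96 and -0.92 after the 2 divisions, under 2-fold. The relative input density was 1.32 in UW228 and 0.840, 1.27 and 1.02 in the Group 3 lines.

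SEMA3G, a ligand known from vessels, had no region in UW228 and TEs in the 3 Group 3 lines. Its summed signal was 10906 in MB002, 25937 in D425 and 13713 in the HD-MB03 line, and the covered length 12.4 kb, 24.2 kb and 34.9 kb. A region in all 3 Group 3 lines and none in UW228 was found at this 1 gene of the 10 and at 11.2% of all protein-coding genes. The best region of D425, before the gene, ranked 450, which is 19 places below its last SE, and passed the recomputed cutoff after either division by input. Its rank was then 677 with the input of the region and 346 with that within 500 kb, while the cutoff let in 989 and 964 regions where the deposited calls have 431. With the first division it passed only because the cutoff let in more regions. With division by the input within 500 kb the best region of HD-MB03 passed too, at rank 518 of 1045, and would not have been among the 302 of the deposited calls. The relative input density was 1.01, 1.35 and 0.983, and the median within 500 kb in UW228 was 0.401.

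SEMA3B, SEMA3D and SEMA3E had TEs only within 50 kb. SEMA3B, a neighbour of SEMA3F on 3p21, had a summed signal of 2112 in MB002 over 5.06 kb, 13283 in D425 over 31.0 kb, 9828 in the HD-MB03 line over 19.9 kb and 10125 in UW228 over 27.4 kb, all before the gene. Its mean per bp was 0.418, 0.428, 0.493 and 0.369, and the log2 ratio of MB002 went from -2.26 in summed signal to 0.18 per bp. The relative input density of SEMA3B was 0.859, 0.939, 1.19 and 0.207, and after either division by input the UW228 region passed the recomputed cutoff. The log2 ratios to UW228 were then -4.31, -1.84 and -2.56 with the input of the region and -3.62, -1.08 and -1.62 with that within 500 kb, and D425 had turned from 0.39. SEMA3B was thus lower in all 3 Group 3 lines after division by input and not before it. With a window of 100 kb it was assigned a SE in HD-MB03 and the ratio of that line went from -0.04 to 1.70, and with 25 kb that of D425 went to -1.37. SEMA3D had a summed signal of 4078, 2391, 2880 and 3160, a narrow range in which the lines were not apart by 2-fold. Its covered length was 4.29 kb, 15.7 kb, 2.16 kb and 5999 bp and its mean per bp 0.951, 0.152, 1.33 and 0.527. SEMA3E, whose product binds PLXND1 without a neuropilin, had no region in MB002 and HD-MB03, 7 regions with 9101 over 24.4 kb in D425 and 1 with 744 over 1.06 kb in UW228. Its log2 ratio of D425 to UW228 was 3.61 in summed signal and -0.91 per bp, so its direction depended on the scale.

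NRP1, the receptor for SEMA3A and a co-receptor for VEGF, had a SE in UW228 alone. It spanned 132 kb, from 5.78 kb before the start to 126 kb inside the gene, at chr10:33210129-33342046, and its signal of 74982 ranked 80. The summed signal was 17812 in MB002 over 44.7 kb, 14437 in D425 over 25.8 kb and 84716 in UW228 over 148 kb, and HD-MB03 had no region. The mean per bp was 0.398, 0.561 and 0.571, so MB002 was below UW228 on both scales and D425 was level with it per bp. Ranked by mean per bp, the best NRP1 region of UW228 was at 7292 and missed the recomputed cutoff, which let in 1701. The log2 ratio to UW228 was -2.25 in MB002 and -2.55 in D425, and over all settings it ranged from -2.33 to -0.52 in MB002 and from -2.61 to -0.03 in D425. Both MB002 and D425 had a TE over the start site itself. The relative input density was 0.932, 0.872 and 0.945.

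NRP2, the main receptor of SEMA3F, had a SE in MB002 and in UW228. In MB002 it spanned 54.5 kb over the start, at chr2:205679577-205734068, with a signal of 35130 and rank 316, which is 47 places above the last SE. In UW228 it spanned 29.6 kb from 1.77 kb after the start, at chr2:205683761-205713371, with a signal of 45561 and rank 231. The summed signal of the gene was 40048 in MB002 over 72.1 kb, 4582 in D425 over 24.2 kb, 13783 in the HD-MB03 line over 33.7 kb and 54112 in UW228 over 53.6 kb, and the mean per bp 0.555, 0.189, 0.409 and 1.01. UW228 was the highest and D425 the lowest on both scales. The log2 ratio to UW228 was -0.43 in MB002, -3.56 in D425 and -1.97 in the HD-MB03 line, and division by the median signal of the line turned that of MB002 to 0.49. The relative input density was 1.23, 1.06, 1.10 and 0.815. SEMA3F and its receptor NRP2 thus had SEs together in MB002 alone by the deposited calls, and also in UW228 after either division by input. With mean signal per bp the best NRP2 region of MB002 was a TE of 0.484 kb, which ranked 6753 with 329 let in. The SE of MB002 was lower, at 0.645 per bp against 0.755 for that TE, so no line had both.

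**Figure D4:**
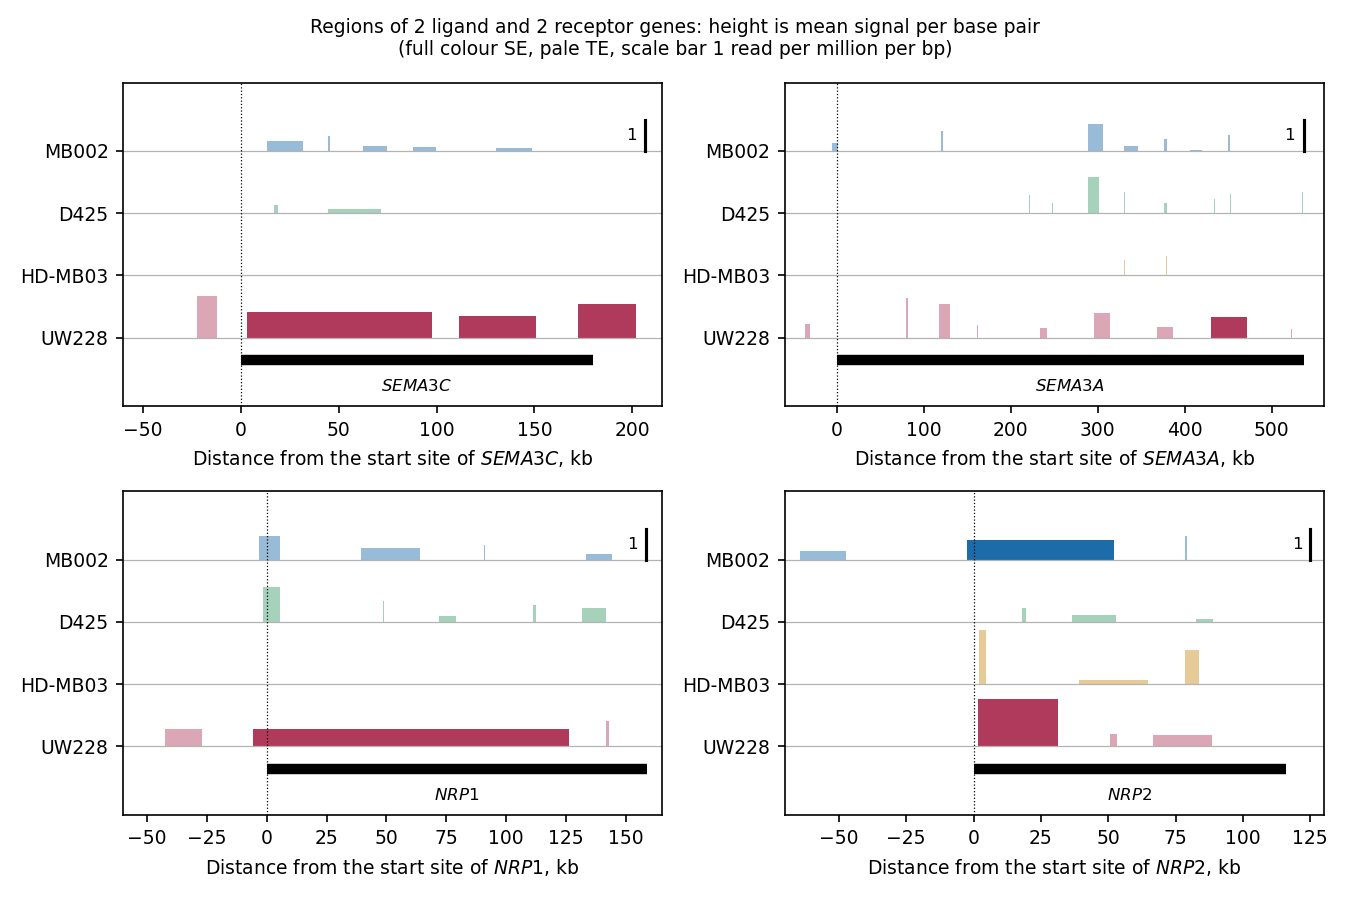
Regions of SEMA3C, SEMA3A, NRP1 and NRP2 by distance from each start site in kb, with box height the mean signal in RPM per bp, full colour for SEs and pale colour for TEs. The SEs of UW228 cover long stretches of SEMA3C and NRP1 where MB002 and D425 have short TEs and HD-MB03 has none.

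RBM5 encodes an RNA-binding protein that acts in splicing and is neither a ligand nor a receptor. It was assigned the same SE as SEMA3F in each Group 3 line, so the 2 genes are not separate observations, and the distance rule does not say which gene the SE acts on. The SE began 2.38 kb after the end of RBM5 in MB002, 2.88 kb in D425 and 1.92 kb in the HD-MB03 line and overlapped the RBM5 body in none of them. The summed signal of RBM5 was 133433, 82110 and 84847 in the Group 3 lines over 39.1 kb, 30.4 kb and 47.9 kb. In UW228 RBM5 had 1 TE of 1.76 kb with a signal of 1447 and rank 11160, and the mean per bp was 3.41, 2.70, 1.77 and 0.824. That TE lay 37.5 kb from the RBM5 start and shared 0 bp with the RBM5 regions of each Group 3 line. The log2 ratio to UW228, 6.53, 5.83 and 5.87 in summed signal and 2.05, 1.72 and 1.11 per bp, thus sets different places side by side and is no change at a common place. Within 100 kb, which takes in the SEMA3F TE of UW228, the ratio of summed signal fell to 2.73, 2.06 and 2.08, and with division by the input within 500 kb it was 5.17, 4.38 and 4.30. With a window of 25 kb RBM5 lost the SE in every Group 3 line.

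Other genes of 3p21 were read because they share the interval. Of 21 listed neighbours 5 had a SE in MB002, 4 in D425, 5 in the HD-MB03 line and 0 in UW228, and each was the same SE. RBM5, RBM5-AS1, SEMA3F-AS1 and GNAT1, which encodes rod transducin, were assigned it in all 3 Group 3 lines, and SLC38A3, an amino acid transporter, in MB002 and HD-MB03. The other neighbours had TEs at most, and CACNA2D2 had a region in MB002 alone.

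**Figure D5:**
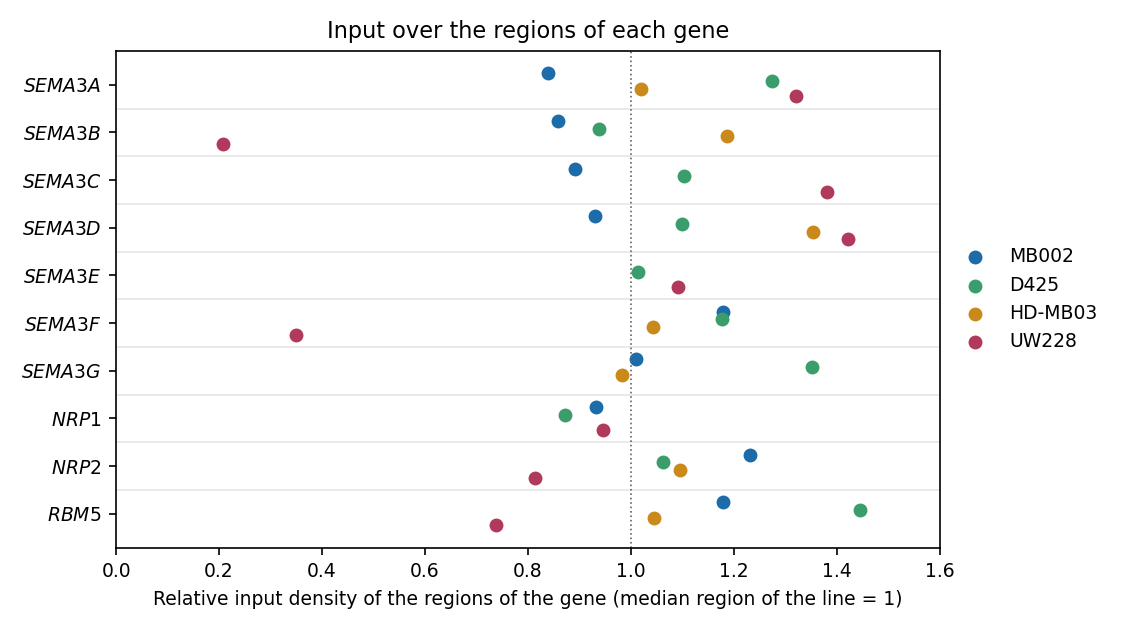
Input density over the regions of each gene relative to the median region of the line, which is the dotted line at 1. The UW228 points of SEMA3B and SEMA3F lie far to the left of the other lines, at 0.207 and 0.350, and the UW228 points of SEMA3A, SEMA3C and SEMA3D lie above 1.

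A gene was called higher in the Group 3 lines when it had a region in all 4 lines and all 3 ratios to UW228 were at least 2-fold. Of the 10 genes 6 had a region in all 4 lines. Of these, 2 were higher, SEMA3F and RBM5, where 19.4% of 7203 protein-coding genes were, and 1 was lower, SEMA3A, where 15.6% were. The calls of SEMA3F and RBM5 take in the same SE of each Group 3 line, which was part of the choice. The call of RBM5 rests on different places in UW228 and the Group 3 lines. That of SEMA3F rests on places shared only in part. UW228 regions covered 10.8% of the SEMA3F region length of MB002, 4.53% of that of D425 and 26.7% of that of HD-MB03. After division by relative input density RBM5 was higher and NRP2 and SEMA3B were lower, where 15.1% and 18.8% of those 7203 genes were. With the input within 500 kb RBM5 was higher and SEMA3B lower, beside 16.6% and 17.6%, so the calls of SEMA3F and SEMA3A were lost in both. With a missing region counted as 0, SEMA3F, RBM5 and SEMA3G were higher and SEMA3A, SEMA3C and NRP1 lower, beside 20.4% and 20.5% of 17764 genes with a region in at least 1 line. With mean signal per bp 1 was higher, RBM5, and 0 lower, where 6.14% and 6.12% of the 7203 genes were. With division by the median signal of the line 2 were higher and 0 lower, beside 30.5% and 7.22% of the 7203 genes. That division shifts every log2 ratio by 0.92 in MB002, 1.24 in D425 and 1.00 in the HD-MB03 line.

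The distance rule mattered at a few places. The farthest region taken in by distance alone was 47.3 kb from its gene, a TE of NRP2 in MB002 with a signal of 4552, and the nearest left out were at 52.6 kb and 52.7 kb from SEMA3B, with 6029 in D425 and 5683 in MB002. None of the nearest regions left out was a SE, although the 100 kb window gave SEMA3B a SE in HD-MB03. The TE of UW228 at SEMA3F lay 66.9 kb from the RBM5 start and so was not counted for RBM5.

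Of 48 other genes of the pathway in 5 lists, 14 had a SE in at least 1 line, with 0 in MB002, 8 in D425, 7 in the HD-MB03 line and 5 in UW228. A SE in at least 1 line was found at 12.3% of all protein-coding genes. The rule takes in regions over the whole gene body, and gene length was not matched in these shares. In the same order of lines a SE was found at 3.35%, 4.34%, 3.11% and 4.99% of them. Of 30 with a region in all 4 lines, 8 were higher in the Group 3 lines and 3 lower. Of 12 receptors and co-receptors of class 3 semaphorins 4 had a region in all 4 lines, and of these PLXNA4 was higher with a log2 ratio of 6.57, 6.21 and 3.72. Outside these 4, KDR, a VEGF receptor, had 15253 in UW228 against 80.5 in MB002 and no region in D425 and HD-MB03, and MET had 59263 against at most 10974. PLXNA2 had SEs in HD-MB03 and UW228, and MET, a receptor that associates with plexins, had one in UW228. PLXNA1 and FLT1, another VEGF receptor, had regions in all 3 Group 3 lines and none in UW228. Of 5 VEGF ligands, VEGFA had a SE in D425 and PGF in HD-MB03, VEGFB was higher and VEGFC lower, with log2 ratios of 3.94, 2.19 and 1.45 and of -1.65, -2.65 and -4.52.

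Of 4 other plexins, PLXNB2 and PLXNC1 had a SE in D425 alone, where the best PLXNC1 region ranked 19. Of 13 other semaphorins 10 had a region in all 4 lines, and of these SEMA4C, SEMA4G, SEMA5B and SEMA6D were higher. SEMA5A, with no region in MB002 and HD-MB03, had 73.1 in D425 and 24953 in UW228. SEMA6D, a membrane-bound semaphorin, had a log2 ratio of 5.24, 4.31 and 5.44 and a SE in HD-MB03, and SEMA5B had 2.98, 4.17 and 3.56 and a SE in D425. SEMA4A had a SE in D425, HD-MB03 and UW228, with best ranks 407, 37 and 132, and SEMA4B in D425 and UW228. Of 14 cytoplasmic effectors 9 had a region in all 4 lines, and of these 2 were higher, CDK5 and RRAS, each with a SE in HD-MB03, and 2 were lower, DPYSL2 and DPYSL3, which encode collapsin response mediators. MICAL2, an actin-oxidising enzyme, had SEs in D425, HD-MB03 and UW228 and MICAL3 in D425. Of the 7203 genes with a region in all 4 lines 19.4% were higher and 15.6% lower. With mean signal per bp 2 of the 30 were higher and 2 lower, beside 6.14% and 6.12% of those genes. Division by the median signal of the line left 9 of 30 higher and 0 lower, beside 30.5% and 7.22%. When a missing region was counted as 0, a choice made after the data had been seen, 12 of the 48 were higher and 10 lower, beside 20.4% and 20.5% of 17764 genes with a region in at least 1 line. The pathway lists thus had genes on both sides except after division by the median signal.

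Genes with the pattern nearest to 3 of the family were found by Euclidean distance of log2 summed signal plus 100 over the 4 lines, among genes that share no region with them. Nearest to SEMA3F were TSPAN9, CORO2B, SSBP3, GSE1 and PRKCE, at distances from 0.62 to 1.11, each with a SE in all 3 Group 3 lines and none in UW228. TSPAN9 had a summed signal of 107813 in MB002, 66828 in D425, 73583 in the HD-MB03 line and 17385 in UW228. Nearest to NRP2 were ARHGEF3, COL1A1, RIT1, MBP and TANC2, at 0.45 to 0.88. Nearest to NRP1 were GLIS3, PSMD1, MET and ENSG00000285708, at 0.44 to 1.05, all with no region in HD-MB03. With 4 lines the distance rests on 4 values per gene.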

How the data were processed

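Each of the 4 cell lines had 1 H3K27Ac library and 1 input library. The authors aligned reads to GRCh38 with Bowtie2 2.3.0, used SAMtools 1.9 and called peaks over input with MACS2 2.2.6. The deposited signal of each region is RPM per bp multiplied by region length, as ROSE writes it, and the deposited rank is a score of order by H3K27Ac minus input. The file headers give the stitching distance in whole kb, as 12 kb. The methods of the paper give a slightly longer distance, so the 2 need not differ. Read depth is not given in the sources used here, so no interval was computed.

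Regions were matched to GENCODE 44 genes with Python 3.11.15, numpy 2.4.6 and pandas 2.3.3, and drawn with matplotlib 3.10.9. Signal was H3K27Ac minus input, floored at 0, and its order matched the deposited rank in all 4 lines. Relative input density is input per bp divided by the median of the line. The steps were tested on simulated data.

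The members and lists were chosen with earlier results of these data known. Genes named are the 10 members, every listed pathway or neighbour gene with a SE in at least 1 line, and the 5 genes nearest in pattern to SEMA3F, NRP2 and NRP1, of which 1 is not reported here. Other listed genes named, such as those higher or lower and those with no SE, were chosen after their values were seen. Alternatives were other windows, gene body only, any transcript start, no input subtraction, mean per bp, a recomputed cutoff, the line median and division by input.

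The motif search changed after values were seen. The OTX core, the AP-1 core and the E-box came first. The stretch with most OTX cores looked repetitive when read, so a longer form was added, and the GC box was added after the SEMA3F promoter was read. Stretches were first chosen with 1 motif per gene and then, because the longer OTX form had 0 matches in the shared SEMA3F interval, with each of the first 3 motifs for each of SEMA3F, SEMA3C and NRP2. Those for the OTX core were computed and are not printed.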

Additional observations from a re-analysis of the deposited data

How the results depend on the processing

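Counts and ranks within a factor of 1.5 of the reported value, and log2 ratios within the log2 of that factor, were taken as unchanged, since there are no replicates. A count taken as unchanged can still hide a change of genes. Members with a SE in UW228 went from 4 to 6 with relative input density and to 5 with the input within 500 kb. SEMA3F and SEMA3B gained a SE there in both settings, and SEMA3A lost its SE in the second. A ratio was called reversed when it was at least 2-fold and changed sign. Of the main results under the alternatives 57 were unchanged, 32 moved and 1 reversed, and of the other ratios 86 were unchanged, 62 moved and 3 reversed. Another 14 of these other ratios, at SEMA3B, SEMA3D and NRP2, changed sign from under 2-fold and are counted as unchanged or moved. The cause was not tested for any of them.

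With mean signal per bp the best SEMA3F region ranked 119 in MB002, 263 in D425, 836 in the HD-MB03 line and 2710 in UW228, and of the SEs of the members only those of SEMA3F and RBM5 in MB002 and of NRP2 in UW228 passed the cutoff. The log2 ratio to UW228 over all SEMA3F regions was 1.51, 0.38 and 0.55. The pathway genes higher in the Group 3 lines were then 2. Reversed per bp were SEMA3A in D425, at 0.52, SEMA3B in MB002, at 0.18, and SEMA3E in D425, at -0.91. Divided by relative input density, the best SEMA3F region ranked 6 in MB002, 68 in D425 and 199 in UW228, and the ratios over all regions were 1.10, 0.38 and 0.61. Divided by the median input density within 500 kb, it ranked 4 in MB002, 3 in HD-MB03 and 174 in UW228, and the ratios were 1.48, 0.87 and 0.61. Divided by the median signal of the line, the ratios were 3.76, 3.56 and 3.19 and 0 pathway genes were lower. With a missing region counted as 0 there were 10. Without input subtraction SEMA3F ranked 18 in HD-MB03.

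With gene bodies only the SEMA3F ratio of D425 reversed to -3.41, because its SE ends before the gene, and members with a SE fell to 0 in D425 and 1 in HD-MB03. Within 25 kb they were 1 in D425 and 1 in HD-MB03, and within 100 kb the SEMA3F ratio was 2.21 in MB002 and 1.69 in D425 and SEMA3B gained a SE in HD-MB03.

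Division by input within 500 kb for ratios and for SE counts, the count of a missing region as 0, and all alternatives for the ratios of members other than SEMA3F and for the calls of members as higher or lower by input, were chosen after seeing the data. No paired analysis was possible because each line has 1 library of each kind and no result comes from a test. With unknown depth, a gene with no region cannot be told apart from one below detection.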
